A study of Mus musculus with 12 samples.

Results

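The genes described here belong to 8 families of developmental transcription factors, and they were chosen by name alone: every gene whose symbol is Sox, Pax, Tbx, Lhx, Dlx, Irx, Gata or the Six-family name followed by a number. This gave 73 of the 25507 gene windows of the table, namely 19 Sox, 13 Tbx, 9 Pax, 8 Lhx, 6 Dlx, 6 Six-family, 6 Irx and 6 Gata genes. The rule uses no measured value, but it was set with earlier results of these data known. Sox factors bind DNA through an HMG box and Tbx factors through a T-box. Pax factors bind through a paired domain, Lhx, Dlx, Six-family and Irx factors through a homeodomain, and Gata factors through zinc fingers. T-box genes with other names (T, Eomes, Tbr1) and Sry lie outside the name pattern and are not counted among the 73.

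The marks were read by CUT&Tag, in which an antibody brings a transposase to a chromatin mark and the DNA beside it is cut and tagged, in KPC1199, a cultured mouse pancreatic ductal adenocarcinoma line of C57BL/6 strain. Antibodies were to H3K4me3, H3K27Ac, H3K27me3 and ubiquitinated histone H2A, which the labels call H2A119Ub. Each mark was read in 3 cell states: untreated cells, cells treated with 10 ng/ml IFN-gamma, both without selection on PD-L1, and treated cells that were PD-L1 high. There was 1 library per mark and state, 12 in all. One cell line was used, and how the PD-L1 high cells were picked out is not given in the sources used here. Values are normalised tags per 6000 bp gene window, so levels of different genes cover the same length, and sets of 3 values are given in the order untreated, IFN-gamma unselected, PD-L1 high.

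With 1 library per group there was no replicate check, so no difference was tested and no p-value is given. Intervals at 95% cover counting error only, and since the reads carry no molecular identifiers they are lower limits of the error. In a culture read in bulk, fewer cells carrying a mark and less of it per cell cannot be told apart. Taking 10 M tags as the authors' scale, a reading of the values, depth was 7.59 to 10.1 M tags, the lowest being H2A119Ub of IFN-gamma unselected cells. H3K4me3 at Cd274, the gene of PD-L1, was 229, 650 and 786 tags. In untreated cells H3K4me3 was 75.7 to 1438 tags at 6 epithelial and ductal marker genes, 4.98 to 52.8 at 5 leukocyte markers, 1 to 42.3 at 3 endothelial markers, 1.99 to 333 at 4 fibroblast markers and 0 to 17.4 at 6 acinar and endocrine markers.

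As background, these factors lay out body axes, organs and cell types in the embryo, and in most adult cells a few of them stay active while the others are kept silent. Polycomb repressive complexes do much of that silencing: PRC2 places H3K27me3 and PRC1 ubiquitinates histone H2A, often over broad domains at CpG-rich promoters. H3K4me3 and H3K27Ac mark active promoters, and a promoter with H3K4me3 and H3K27me3 together is called bivalent. In the pancreas, Sox9 marks progenitors and ducts, Gata4 and Gata6 act in the early organ, and Pax4 and Pax6 act in endocrine cells.

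5 promoters are shown because their genes stand at the ends of what the marks showed in untreated cells. They are RefSeq sequences (build GRCm38.p6, the same assembly as mm10) running from 250 bases before to 50 bases after the annotated start. Capitals mark each CpG, a C followed by a G on the same strand, in which Polycomb-bound promoters are often rich. Irx3 (chr8:91801605-91801904, minus strand, 14 CpG) carried H3K4me3 with little H3K27me3. Tbx1 (chr16:18588850-18589149, minus strand, 26 CpG) had the highest H3K27me3 of the 73 genes. Sox12 (chr2:152397997-152398296, minus strand, 47 CpG) carried both marks at high levels. Irx4 (chr13:73260247-73260546, plus strand, 31 CpG) and Tbx22 (chrX:107667714-107668013, plus strand, 1 CpG) had next to no tags of either mark.
Irx3: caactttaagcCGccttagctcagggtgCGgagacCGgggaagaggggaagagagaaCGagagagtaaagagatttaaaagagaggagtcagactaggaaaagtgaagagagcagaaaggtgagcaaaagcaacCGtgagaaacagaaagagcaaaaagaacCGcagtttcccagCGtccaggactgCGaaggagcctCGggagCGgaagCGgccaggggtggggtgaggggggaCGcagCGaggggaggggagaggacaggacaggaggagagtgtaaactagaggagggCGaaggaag
Tbx1: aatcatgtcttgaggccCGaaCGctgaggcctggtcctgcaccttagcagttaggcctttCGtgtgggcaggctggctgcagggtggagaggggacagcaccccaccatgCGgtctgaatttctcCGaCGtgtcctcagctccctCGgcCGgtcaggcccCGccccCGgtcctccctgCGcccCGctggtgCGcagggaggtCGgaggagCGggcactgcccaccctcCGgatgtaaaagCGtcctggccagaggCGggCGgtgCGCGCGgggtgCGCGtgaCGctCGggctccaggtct
Sox12: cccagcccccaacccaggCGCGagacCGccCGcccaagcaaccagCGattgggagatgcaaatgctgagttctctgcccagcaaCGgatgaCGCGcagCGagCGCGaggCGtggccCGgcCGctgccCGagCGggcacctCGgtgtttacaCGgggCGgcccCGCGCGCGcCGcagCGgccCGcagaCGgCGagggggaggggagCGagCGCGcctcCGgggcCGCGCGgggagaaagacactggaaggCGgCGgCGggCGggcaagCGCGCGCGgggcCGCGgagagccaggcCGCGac
Irx4: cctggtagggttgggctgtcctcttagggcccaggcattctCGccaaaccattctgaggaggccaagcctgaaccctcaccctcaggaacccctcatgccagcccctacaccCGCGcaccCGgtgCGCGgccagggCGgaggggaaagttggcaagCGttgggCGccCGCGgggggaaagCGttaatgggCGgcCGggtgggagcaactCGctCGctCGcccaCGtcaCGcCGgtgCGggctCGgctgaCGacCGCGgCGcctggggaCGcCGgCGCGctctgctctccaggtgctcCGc
Tbx22: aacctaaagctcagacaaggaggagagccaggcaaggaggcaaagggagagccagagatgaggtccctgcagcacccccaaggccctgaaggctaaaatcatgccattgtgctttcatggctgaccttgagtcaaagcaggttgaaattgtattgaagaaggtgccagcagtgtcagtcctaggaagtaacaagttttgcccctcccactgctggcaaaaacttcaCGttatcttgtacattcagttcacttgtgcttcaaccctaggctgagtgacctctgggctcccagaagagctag
Irx4 and Tbx22 show that windows low in both marks had promoters both with many CpG and with almost none. A promoter was matched for 50 of the 73 genes (68.5%), too few for a count of CpG over all of them, so none is given.

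In untreated cells most of the 73 genes lay in windows of high H3K27me3 and low H3K4me3. The median gene had 374 tags of H3K27me3, while the median of all windows was 14.2. 47 of the 73 genes lay in the highest 10% of windows for this mark, a limit that holds 10% of all windows by construction. For H2A119Ub the median gene had 85.4 tags against 38.1 over all windows, and 24 genes lay in the highest 10%. H3K4me3 and H3K27Ac went the other way, with medians of 24.9 and 23.3 tags against 66.7 and 47.7 over all windows. 5 genes lay in the highest 10% for H3K4me3 and 6 for H3K27Ac (9.97% of all windows). The genes make up 0.286% of the windows. They held 2.48%, 2.58% and 3.16% of all H3K27me3 tags counted in windows, and 0.555%, 0.607% and 0.687% of those of H2A119Ub. Their share of H3K4me3 was 0.178%, 0.180% and 0.178%, so it stayed below their share of windows in all 3 libraries.

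**Figure D1:**
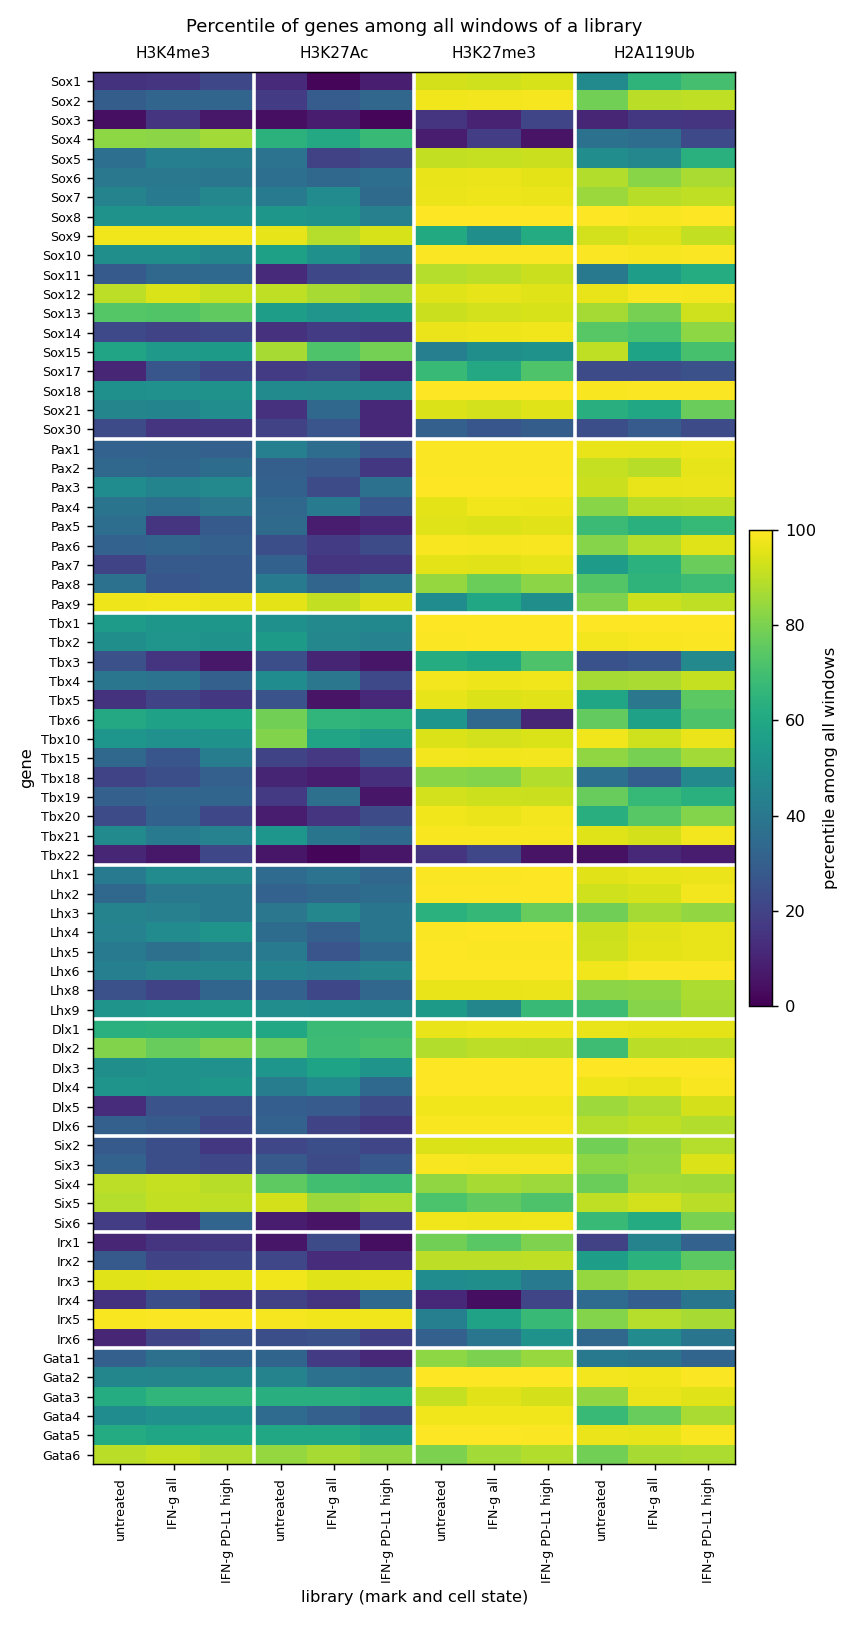
Percentile of 72 of the 73 genes (rows, by family) among all 25507 windows in each of the 12 libraries (columns, by mark and cell state), from 0 (dark) to 100 (yellow). H3K27me3 is near the top of the scale for most rows, and the rows dark in H3K27me3 include Sox4, Sox3, Tbx22 and Irx4.

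The families were not alike. The highest median H3K27me3 in untreated cells was that of the Lhx genes with 1165 tags, then came Dlx with 776. The Six-family genes (424), Tbx (411), Gata (376) and Pax (375) lay close together, Sox had 251, and Irx stood apart with 12.2 tags, below the median window. H2A119Ub gave a similar top and bottom, with medians of 137 tags for Dlx, 128 for Lhx and 34.7 for Irx, and 73.6 to 84.4 for the 5 others. The family median of H3K4me3 was highest for Gata (154 tags) and lowest for Irx (4.98), although the single highest H3K4me3 of all 73 genes was that of an Irx gene, Irx5. Across the 73 genes in untreated cells, H3K27me3 and H2A119Ub had a Spearman rank correlation of 0.72, and 0.69 over all windows. H3K4me3 and H3K27Ac had 0.91 and 0.92, and H3K4me3 and H3K27me3 had 0.06 and 0.17. These are descriptions across genes of 2 libraries each, and genes that lie near each other are not independent.

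With the median window of each mark as the limit (66.7 tags of H3K4me3 and 14.2 of H3K27me3), 45 of the 73 genes (61.6%) reached it in H3K27me3 only, compared with 24.6% of all windows. 18 genes (24.7%) reached both limits, against 25.6% of all windows, a share near the background. 5 genes (6.85%) reached it in H3K4me3 only, against 24.4% of all windows, and 5 in neither, against 25.4%. By family, 8 of 9 Pax genes and 7 of 8 Lhx genes had H3K27me3 only, 3 of 6 genes each of the Dlx, Gata and Six-family groups had both, and the Irx genes split into 2 with H3K4me3 only, 2 with H3K27me3 only and 2 with neither. With the limits set at the highest 25% of windows (468 and 39.1 tags), 4 genes (5.48%) reached both, namely Sox12, Dlx2, Six4 and Gata6, against 2.89% of all windows, and 52 (71.2%) reached it in H3K27me3 only, against 22.1%.

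**Figure D2:**
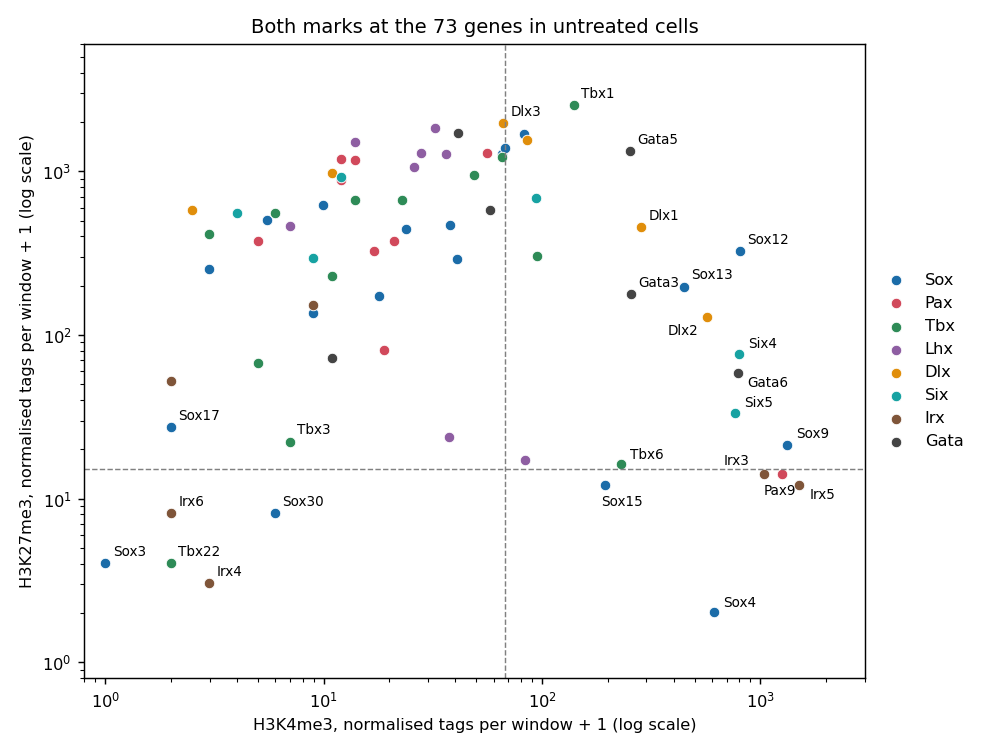
Untreated cells: H3K4me3 (x axis) against H3K27me3 (y axis) of the 73 genes, as normalised tags per window plus 1 on log scales, coloured by family, with dashed lines at the median window of each mark (66.7 and 14.2 tags, drawn plus 1). Most genes sit in the upper left. Irx3, Irx5, Pax9, Sox4 and Sox15 sit at the lower right, and Sox9 lies above them, over the H3K27me3 line.

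Few genes had strong H3K4me3 and little H3K27me3, and the 5 described here came from 3 families. Irx5, an Iroquois homeodomain factor of heart and limb development (chr8:92357796-92361456), had 1499, 2027 and 2090 tags of H3K4me3, 379, 414 and 402 of H3K27Ac, and 11.2, 20.3 and 19.1 of H3K27me3. Its cluster neighbour Irx3, which lies on the same chromosome, had H3K4me3 of 1035, 1362 and 1440 tags, H3K27Ac of 329, 325 and 325 and H3K27me3 of 13.2, 15.2 and 6.04. Sox9, the ductal and progenitor factor (chr11:112782210-112787757), had H3K4me3 of 1321, 1638 and 1767 tags. Its H3K27me3 was 20.3, 15.2 and 14.1, which in untreated cells reached the median window, so Sox9 counted as having both marks. The active marks of these genes were thus far above the median window in all 3 states. Pax9, a factor of pharyngeal pouches and teeth (chr12:56691693-56712824), had H3K4me3 of 1249, 1639 and 1561 tags and H3K27Ac of 278, 254 and 317. Its H3K27me3 was 13.2, 22.3 and 8.55 tags, and every other Pax gene had more, from 80.3 tags at Pax8 to 1291 at Pax3 in untreated cells. Sox4, a SoxC factor of progenitor and tumour cells (chr13:28948919-28953699), had 611, 736 and 877 tags of H3K4me3, 82.2, 80 and 103.8 of H3K27Ac, which is less than at the genes above, and the least H3K27me3 of all 73 genes in untreated cells, with 1.02, 3.04 and 0 tags. A count of 0 allows up to 3 tags on one side, and the 2-sided interval of that 0 ran up to 3.71.

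Closely related genes could carry opposite marks. Sox8, Sox9 and Sox10 form the SoxE group, which acts in neural crest, gonad and cartilage. Sox8 had 1698, 2098 and 2483 tags of H3K27me3 and Sox10 had 1282, 1607 and 1896, while Sox9 stayed at or below 20.3. Sox4, Sox11 and Sox12 form the SoxC group. In untreated cells H3K27me3 was 136 tags at Sox11, 1.02 at Sox4 and 324 at Sox12, while H3K4me3 was 7.97, 611 and 806. Among the Six-family genes, which act with Eya cofactors in eye, ear, kidney and muscle, Six4 had 800.0, 1042 and 988 tags of H3K4me3 and Six5 767, 1028 and 1044. Six3, a forebrain and eye factor, had 10.9, 2.98 and 1.98 tags of H3K4me3, and the highest H3K27me3 of its family with 916, 1036 and 1290.1.

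The highest H3K27me3 of each family was found at genes of very different organs. Tbx1, a factor of the pharyngeal arches (chr16:18580979-18590671), had 2548, 3024 and 3925 tags. Dlx3, a factor of epidermis and placenta (chr11:95120117-95125296), had 1978, 2395 and 3137. Lhx6, a factor of cortical interneurons (chr2:36081950-36105992), had 1844, 2276 and 2813. Each of them was higher in IFN-gamma unselected than in untreated cells and highest in PD-L1 high cells, before any centring. This order did not hold with the quantile normalization described below. The log2 ratio of PD-L1 high over untreated cells was then -0.04 at Tbx1, -0.07 at Dlx3 and -0.12 at Lhx6. Gata2, a factor of blood stem cells (chr6:88193891-88207032), had 1722, 1956 and 2882 tags, and Pax3, a factor of neural crest and muscle, had 1291, 1716 and 2226. Irx2, an Iroquois factor, had the highest value of its family with only 152, 172 and 190.1 tags. Tbx21, which encodes the T helper factor T-bet and is known for driving the IFN-gamma gene in lymphocytes, had 945, 1156 and 1497 tags of H3K27me3 in these tumour cells, with 47.8, 15.9 and 21.8 tags of H3K4me3.

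Several members lie beside each other, and neighbours shared their marks to different degrees. Dlx1 and Dlx2 lie 9427 bp apart on chromosome 2 and had H3K27me3 of 453 and 127 tags and H3K4me3 of 284 and 570.0 in untreated cells. Dlx5 and Dlx6 lie 9831 bp apart on chromosome 6 and had 579 and 973 tags of H3K27me3, with 1.49 and 9.96 of H3K4me3. Dlx3 and Dlx4 lie 15151 bp apart on chromosome 11 and had 1978 and 1548 tags. All 3 Dlx pairs, which are expressed together in branchial arches and forebrain or skin, were thus above the median window in H3K27me3. Another pair was less even. Tbx3 and Tbx5 lie 111790 bp apart on chromosome 5 and had 21.3 and 411 tags of H3K27me3. No members lay within 3000 bp of each other, so no window was shared between them, but 34 of the 73 have another gene of the table within 3000 bp. 10 of these had more than 10 tags of H3K27me3 in untreated cells and a neighbour whose H3K4me3 and H3K27me3 lay within 10% of their own, such as Gata6 and Gata6os, and the values of such a pair cannot be told apart.

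The 5 genes low in both marks also came from several organs. They were Sox3, a neural and pituitary factor, Sox30, a factor of sperm formation, Tbx22, a palate factor, Irx4, a factor of the heart ventricle, and Irx6. H3K27me3 was 3.05, 1.01 and 2.01 tags at Sox3 and 2.03, 0 and 2.01 at Irx4. Their H3K4me3 in untreated cells was 0 to 4.98 tags. Sox17, an endoderm factor, and Tbx3, a repressor acting in limb, heart and mammary gland, came close to them, H3K4me3 there being 1 and 5.97 tags and H3K27me3 26.4 and 21.3.

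The comparisons between states asked how IFN-gamma treatment and a high PD-L1 level went with these marks. Ratios are log2 values centred on the median of all windows kept, and a window was kept if its mean over the 3 libraries of a mark reached the middle window. Of the 73 genes, 64 were kept for H3K27me3 and 62 for H2A119Ub, but only 26 for H3K4me3 and 18 for H3K27Ac. The 9 not kept for H3K27me3 were Sox3, Sox4, Sox15, Sox30, Tbx6, Tbx22, Irx3, Irx4 and Irx6. The 3 ratios share libraries, so they are set side by side and not compared with each other.

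With the median centring, H3K27me3 was the mark whose median in these genes stood furthest from the centre in the ratios of PD-L1 high cells. In IFN-gamma unselected over untreated cells the median of the 64 genes was 0.07, and 44 lay above 0. In PD-L1 high over IFN-gamma unselected cells it was 0.60, with 59 of 64 above 0, and in PD-L1 high over untreated cells 0.76, with 60 of 64. The counting interval lay above 0 at 18, 49 and 51 genes in the 3 ratios, where 15.4%, 23% and 23.2% of all windows kept did so. It lay below 0 at 5, 0 and 0 genes (12.6%, 18.2% and 12.2% of windows). At least 2-fold higher were 1, 1 and 10 genes (3.79%, 1.37% and 2.54% of windows) and none was 2-fold lower (4.51%, 12.6% and 8.88%). Before any centring, values of 45 of the 64 genes (70.3%) came in the order untreated, IFN-gamma unselected, PD-L1 high, against 19.6% of all windows.

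How the libraries were scaled bears on these sizes. The centring took out a shift of all windows of 0.22 in the first ratio, -0.26 in the second and -0.13 in the third. Without it the medians of the 64 genes were 0.29, 0.34 and 0.63, with 54, 54 and 59 genes above 0. With quantile normalization they were -0.05, 0.13 and 0.07, with 25, 45 and 42 genes above 0, so the direction of the first ratio turned and the other ratios shrank. The median window of H3K27me3 was 14.2, 15.2 and 9.05 tags, and the share of all tags that fell in windows was 16.5%, 20.04% and 21.2%. Their part in the result was not tested. Over all windows, 175 were 2-fold higher and 1607 lower in PD-L1 high over IFN-gamma unselected cells, and with quantile normalization 424 and 662.

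Much of the difference was shared with other windows rich in H3K27me3. The 2505 windows in the highest 10% for H3K27me3 in untreated cells that are not members had medians of 0.06, 0.44 and 0.59, and the 47 members in that range 0.07, 0.63 and 0.79. Of the former, 67.5% came in the order untreated, IFN-gamma unselected, PD-L1 high before centring. The 17 members kept below that range had -0.04, 0.47 and 0.35. The range was set on the untreated library, which also enters the first and the third ratio. Hox genes, the clustered homeobox genes of the body axis, had medians of 0.11, 0.66 and 0.87 over 39 genes, and forkhead genes 0.16, 0.48 and 0.59 over 29 genes. In untreated cells the median H3K27me3 was 804 tags for Hox genes, 38 of 39 of which lay in the highest 10%, and 68.8 for forkhead genes, with 18 of 44. The 73 genes lay between these 2 sets with 47 of 73, and whether the sets differ in their ratios was not tested.

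**Figure D3:**
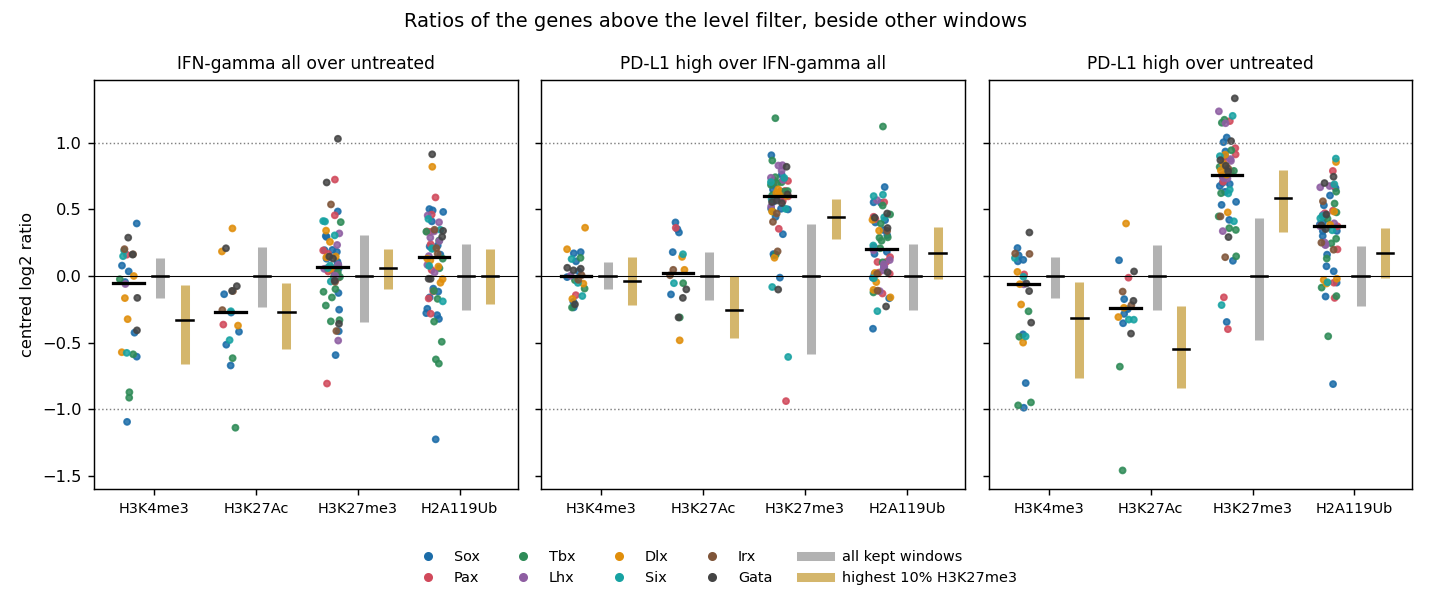
Centred log2 ratios of the genes kept for each mark (points, coloured by family; thick black line, median) in the 3 comparisons, beside the middle 50% and median of all windows kept (grey bars) and of the windows in the highest 10% of H3K27me3 in untreated cells (tan bars). Dotted lines mark 2-fold. H3K27me3 points lie mostly above 0 in the PD-L1 high comparisons, with medians of 0.60 and 0.76.

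The families shared the direction of H3K27me3 in PD-L1 high cells under the median centring and without it, and after quantile normalization all family medians but that of Tbx over untreated cells were still above 0, with that of Dlx near 0. In PD-L1 high over IFN-gamma unselected cells the family medians ran from 0.41 (Irx, 3 genes kept) and 0.50 (Sox, 15) to 0.68 (Tbx, 11) and 0.73 (Lhx, 8). All 8 Lhx, 11 Tbx, 6 Dlx and 3 Irx genes kept were above 0, and the 5 genes below 0 were Sox12, Pax9, Six4, Six5 and Gata3. These 5 had 255 to 1249 tags of H3K4me3 in untreated cells, above the median of 24.9 tags of the 73 genes. Some genes above 0 had such levels too. Irx5 with 1499 tags, Gata6 with 789 and Sox13 with 445 were at 0.18, 0.55 and 0.56. Whether the H3K4me3 level goes with the sign of this ratio was not tested. After quantile normalization the family medians of this ratio ran from 0.0016 for Dlx to 0.55 for Irx, and those of PD-L1 high over untreated cells from -0.03 for Tbx to 0.19 for Irx. The 0.55 was the value of Irx5, a window of few H3K27me3 tags. In IFN-gamma unselected over untreated cells the centred medians were smaller, from -0.10 for Tbx to 0.19 for the Six-family genes, with 3 of 11 Tbx genes and 6 of 6 Dlx genes above 0.

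**Figure D4:**
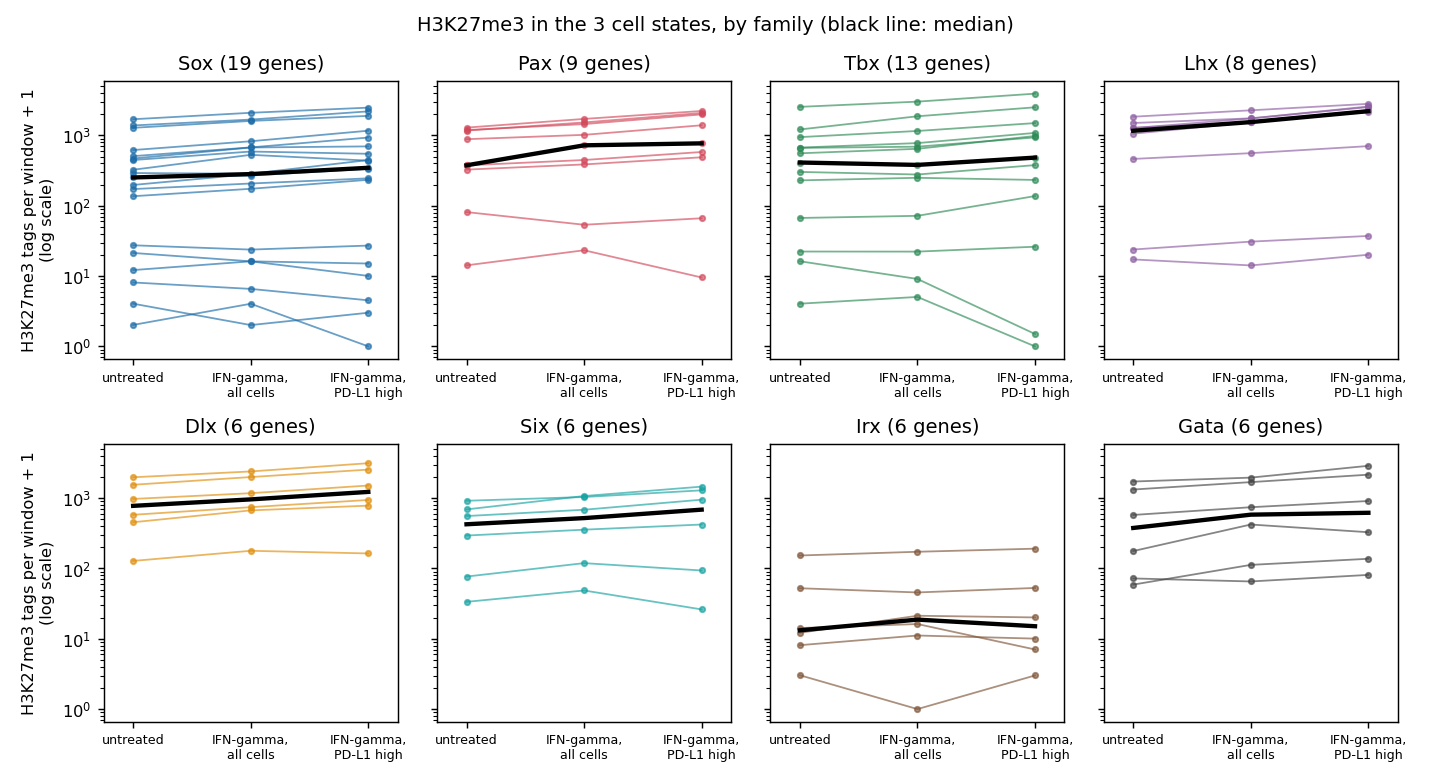
H3K27me3 of every gene (thin lines; normalised tags per window plus 1, log scale, not centred) in the 3 cell states, by family, with the family median as a thick black line. In the Lhx, Dlx and Pax panels the upper lines climb from untreated to PD-L1 high cells, and the Irx panel stays low.

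Among the 10 genes at least 2-fold higher in H3K27me3 in PD-L1 high than in untreated cells were Gata6, Lhx1, Tbx2, Pax4, Lhx4, Tbx18, Sox2, Gata3 and Sox14. Lhx1, a factor of the head organiser and kidney, had 1058, 1537 and 2283 tags of H3K27me3, so each state was above the one before, with a PD-L1 high over untreated ratio of 1.24 (1.13 to 1.34). Tbx2, a repressor known for blocking senescence, had 1214.5, 1872 and 2510 tags, a ratio of 1.17 (1.07 to 1.27). Both genes were already in the highest 10% of windows in untreated cells. After quantile normalization the ratios of Lhx1 and Tbx2 were 0.38 and 0.31, still above 0 but no longer 2-fold. Sox2, the pluripotency and foregut factor, had 619, 825 and 1166 tags, a ratio of 1.04 (0.90 to 1.19), and 0.27 after quantile normalization. With that normalization 2 of the 64 genes were 2-fold higher in this ratio, against 366 of all 12757 windows kept, a share near the background. The 2 genes were Gata6, of the 10, and Irx5, which had 0.81 when centred and 1.21 when quantile-normalised. Irx5 had only 11.2 tags of H3K27me3 in untreated cells, so its ratio rests on few tags.

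Among genes of the endocrine pancreas, Pax4 had 375, 722 and 771 tags of H3K27me3, and most of its difference lay between untreated and IFN-gamma unselected cells, with a ratio of 0.72 (0.54 to 0.91). Pax6 had 883, 1018 and 1394 tags, and its difference lay between the IFN-gamma unselected and PD-L1 high cells, with a ratio of 0.71 (0.60 to 0.83). After quantile normalization the 2 values were 0.64 and 0.15, and that of Pax6 over untreated cells was -0.04. Its H2A119Ub was 84.4, 129 and 162 tags. Gata4, of the early pancreas and endoderm, had 576, 742 and 909 tags of H3K27me3 with 56.8, 59.6 and 65.3 of H3K4me3. Its relative Gata5 had 1325, 1689 and 2155 tags of H3K27me3 beside 250.4, 221 and 243 of H3K4me3.

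Gata6 and Gata3 combined H3K4me3 above the median window with H3K27me3 that was higher after IFN-gamma. Gata6, the pancreatic and classical-subtype tumour factor (chr18:11052510-11085636), had 789, 1037 and 941 tags of H3K4me3, 156, 215 and 185 of H3K27Ac, and 57.9, 111 and 136 of H3K27me3. The ratio of H3K27me3 was 0.70 (0.25 to 1.21) in IFN-gamma unselected over untreated cells and 1.33 (0.91 to 1.83) in PD-L1 high over untreated cells. H3K27Ac at Gata6 was not lower beside it, with ratios of 0.21 (-0.09 to 0.53) and 0.03 (-0.28 to 0.36). Gata3, a factor of T cells and mammary epithelium (chr2:9857078-9887953), had 176, 420.4 and 326 tags of H3K27me3, and was the only one of the 64 genes at least 2-fold higher in IFN-gamma unselected over untreated cells, at 1.03 (0.78 to 1.30). Its H2A119Ub was 89.5, 209 and 160.0 tags, a ratio of 0.91 (0.60 to 1.38) in the same comparison, and its H3K4me3 was 255, 366 and 397. All 3 marks were thus higher at Gata3 in both IFN-gamma states than in untreated cells. After quantile normalization the ratios of H3K27me3 over untreated cells were 0.83 and 1.18 at Gata6 and 1.04 and 0.59 at Gata3, all above 0. Gata6 shares its values with the antisense gene Gata6os. The gene 4930412O13Rik, with 677 tags of H3K27me3 in untreated cells, starts 2646 bp from the start of Gata3.

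**Figure D5:**
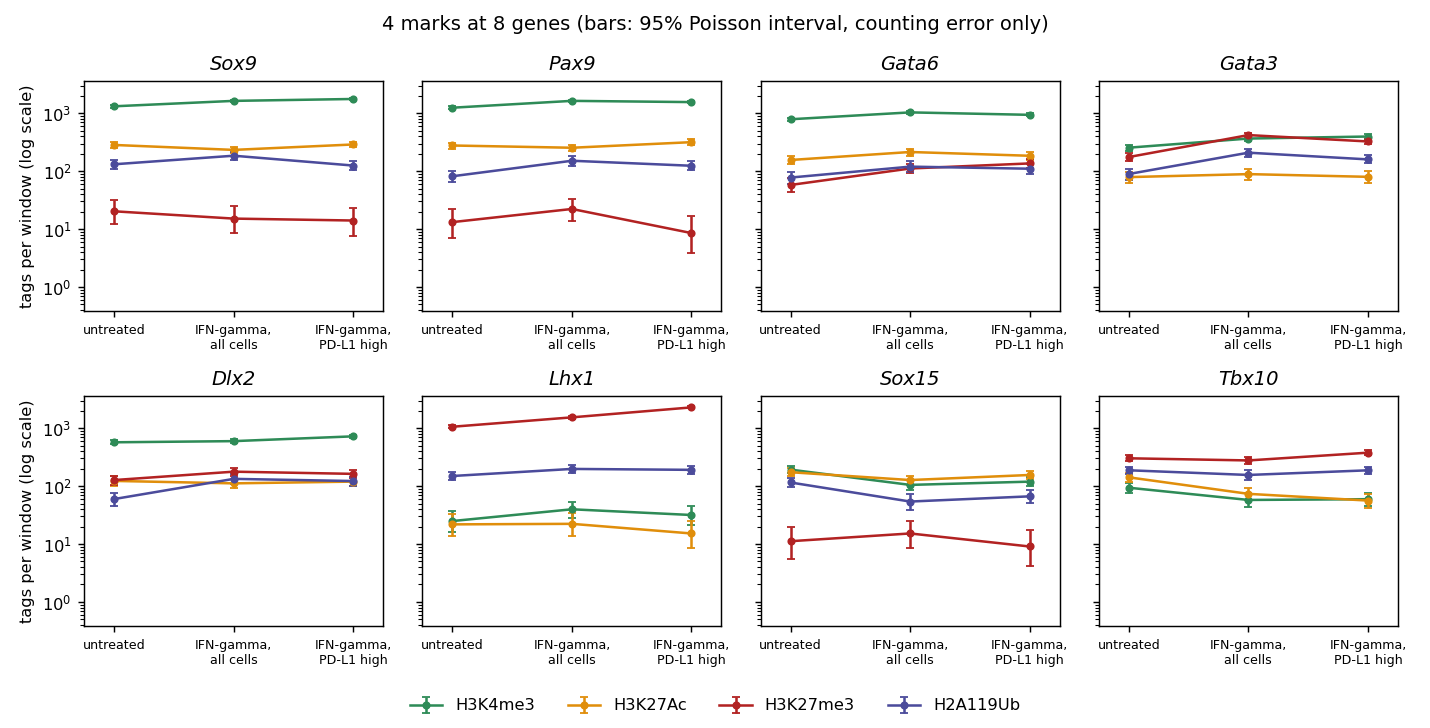
The 4 marks at 8 genes in the 3 cell states, as normalised tags per window on a log scale, with 95% Poisson intervals that cover counting error only. At Gata6 and Gata3 the H3K27me3 points are higher in both IFN-gamma states than in untreated cells, and at Sox15 and Tbx10 the H3K4me3 and H3K27Ac points are lower.

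A few genes had a larger H3K27me3 ratio, in either direction, at 1 step than at the other. The smaller ratio had the opposite sign after centring. In IFN-gamma unselected over untreated cells it was -0.12 at Tbx18, -0.25 at Sox21 and 0.46 at Pax9. At Pax8 it was 0.56 in PD-L1 high over IFN-gamma unselected cells. Before centring the tags at Tbx18 were higher in IFN-gamma unselected than in untreated cells, so the sign of its smaller ratio depends on the scaling. Tbx18, a factor of the sinus node and epicardium (chr9:87702800-87731260), had 66.0, 70.9 and 136 tags, and was the only gene at least 2-fold higher in PD-L1 high over IFN-gamma unselected cells, at 1.18 (0.78 to 1.64), and 1.05 after quantile normalization. Sox21, a neural and hair follicle factor, had 291, 284 and 446 tags, with 0.91 (0.69 to 1.13) at that step. Pax8, a factor of thyroid and kidney, had 80.3, 52.7 and 65.4 tags and the lowest ratio in IFN-gamma unselected over untreated cells, at -0.81 (-1.36 to -0.30). Pax9 had the lowest in PD-L1 high over IFN-gamma unselected cells, at -0.94, on so few tags that its counting interval ran from -2.46 to 0.08.

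With the median centring, H2A119Ub lay less far from the centre than H3K27me3 in the ratios of PD-L1 high cells, and further in the first ratio. The medians of the 62 genes kept were 0.14, 0.20 and 0.38 in the 3 ratios, with 40, 49 and 50 genes above 0. The counting interval lay above 0 at 9, 18 and 31 genes (12.1%, 10.1% and 10.5% of windows) and below 0 at 5, 1 and 1 (10.5%, 12.6% and 9.68%). 1 gene was 2-fold lower in the first ratio (0.894% of windows) and 1 was 2-fold higher in the second (0.361%). None was 2-fold higher or lower in the third (0.227% and 0.306%). Values before centring came in the order untreated, IFN-gamma unselected, PD-L1 high at 27 of 62 genes (43.5%). This compares with 17.3% of all windows and 34.9% of the other windows in the highest 10% of H3K27me3. Without centring the medians were 0.38, 0.06 and 0.46. With quantile normalization 39, 50 and 50 of the 62 genes were above 0, against 25, 45 and 42 of the 64 genes for H3K27me3. One library of each of the first 2 ratios was the shallowest of the 12.

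The gene 2-fold higher in the second ratio was Tbx5, the factor of heart and forelimb. It had 46.8, 33.0 and 73.1 tags of H2A119Ub, so the IFN-gamma unselected value was the lowest and the PD-L1 high value the highest, with ratios of -0.66 (-1.51 to -0.01) and then 1.12 (0.61 to 2.01). Its H3K27me3 was 411, 379.9 and 483 tags. Dlx2, of forebrain and branchial arches (chr2:71543408-71546754), had 59.7, 133 and 122 tags of H2A119Ub, a ratio of 0.82 (0.44 to 1.41) in IFN-gamma unselected over untreated cells. Its H3K27me3 was 127, 177 and 162 tags and its H3K4me3 570.0, 597 and 722, so H2A119Ub differed most. Sox13, a SoxD factor of T cells and cartilage, had 98.3, 94.2 and 139.6 tags of H2A119Ub, with 0.67 (0.28 to 1.14) in the second ratio, and 197, 281 and 346 of H3K27me3. At Sox9 the same mark was 132, 185 and 125 tags, highest in the IFN-gamma unselected library.

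For the active marks the genes lay near the centre or below it. The 26 genes kept for H3K4me3 had medians of -0.05, 0.00 and -0.06, with the counting interval above 0 at 8, 2 and 6 genes (20.3%, 10.8% and 21.6% of windows) and below 0 at 8, 4 and 7 (20.2%, 12.1% and 21.3%). The 18 genes kept for H3K27Ac had medians of -0.27, 0.03 and -0.24. Their interval lay above 0 at 0, 2 and 0 genes (15.9%, 9.51% and 17.2%) and below 0 at 7, 0 and 4 (14.2%, 10.6% and 17.5%). In IFN-gamma unselected over untreated cells 1 gene was at least 2-fold lower for H3K4me3 and 1 for H3K27Ac (1.03% and 0.643% of windows), and none higher (0.361% and 0.251%). In PD-L1 high over IFN-gamma unselected cells none was 2-fold higher (0.00784% and 0.0784%) or lower (0.0784% and 0.196%). In PD-L1 high over untreated cells 1 gene was 2-fold lower for H3K27Ac (1.77%) and none for H3K4me3 (2.09%), and none was higher (0.47% for H3K4me3, 0.392% for H3K27Ac). Before centring, 11 of 26 genes in H3K4me3 (56.5% of windows) and 0 of 18 in H3K27Ac (29%) came in the order untreated, IFN-gamma unselected, PD-L1 high. Without centring the medians were 0.18, 0.07 and 0.25 for H3K4me3, and -0.03 and -0.04 for H3K27Ac in the ratios over untreated cells, so for H3K4me3 the direction turned in the first and the third ratio. The other windows in the highest 10% of H3K27me3 had medians of -0.33, -0.04 and -0.32 for H3K4me3 and -0.27, -0.26 and -0.54 for H3K27Ac.

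The gene 2-fold lower in H3K4me3 was Sox15, a Sox factor of muscle precursors and placenta (chr11:69655037-69656727). H3K4me3 was 192, 105 and 119.2 tags there, with both IFN-gamma states below untreated cells and a ratio of -1.10 (-1.46 to -0.76). H2A119Ub was 115, 54.0 and 66.5 tags, a ratio of -1.23 (-1.88 to -0.80), the lowest of the 62 genes, and H3K27Ac was 173, 127 and 155. All 3 of these marks were thus lower in both IFN-gamma states than in untreated cells. Mpdu1 and Fxr2 lie within 3000 bp of Sox15.

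At the T-box genes Tbx6 and Tbx10 both active marks were lower in both IFN-gamma states than in untreated cells, and at Tbx1 H3K4me3 was. Tbx10, a little studied T-box gene (chr19:3992752-3999512), had 142, 73.4 and 56.2 tags of H3K27Ac, ratios of -1.14 (-1.62 to -0.77) and -1.46 (-2.01 to -1.08) over untreated cells, with 93.6, 57.6 and 59.4 of H3K4me3. Nudt8 lies within 3000 bp of it. Tbx6, of the paraxial mesoderm, had H3K4me3 of 228, 178 and 206 tags and H3K27Ac of 132, 100.2 and 93.2, and its H2A119Ub was 71.5, 52.7 and 68.0. Ppp4c and Ypel3 lie within 3000 bp of Tbx6. Tbx1 had 139, 88.4 and 87.1 tags of H3K4me3, a ratio of -0.87 (-1.29 to -0.49), and the 4 Tbx genes kept had a median of -0.73. Without centring the ratios over untreated cells at Tbx1 (H3K4me3), Tbx6 and Tbx10 were still below 0, while that of H3K4me3 at Tbx2 in IFN-gamma unselected cells turned from -0.02 to 0.21.

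The active genes differed by less. At Sox9 H3K27Ac was 284, 233 and 289.6 tags, with a ratio of -0.52 (-0.78 to -0.27) and then 0.35 (0.10 to 0.61), so the lower value was in the IFN-gamma unselected library. Pax9 had the same order, with -0.37 (-0.62 to -0.12) and 0.36 (0.12 to 0.61). Dlx1 had the highest ratio of H3K27Ac in IFN-gamma unselected over untreated cells, with 71.0, 109.9 and 109.8 tags, but its counting interval ran from -0.06 to 0.85. Sox12 had the highest ratio of H3K4me3 in the same comparison, with 806, 1245 and 1113 tags, at 0.39 (0.27 to 0.52). Its H3K27me3 was 324, 529 and 437 tags and its H2A119Ub 167, 282 and 226, so these 3 marks were all highest in the IFN-gamma unselected library. Lhx9, a gonad factor and the highest Lhx gene in H3K4me3, had 82.6, 93.4 and 98.4 tags, and its intervals included 0 in all 3 ratios.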

How the data were processed

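The deposited table gives, for each gene and library, a signal that the authors had normalised. Bowtie2 2.4.2, HOMER, MACS2 2.2.7.1 and mm10 are named per the submitters' processing notes, without role or order. The window, the handling of duplicates and the scale were not given in the sources used here. All values, times 6000, fell on steps of 0.5 tag (100% within 10% of a step), so the signal was read as tag density over 6000 bp, an inference from the values.

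Python 3.11.15, NumPy 2.4.6, SciPy 1.17.1 and pandas 2.3.3 were used. A pseudocount, the 10th percentile of values above 0 in a mark (1.99 tags for H3K4me3, 5.06 for H3K27Ac, 2.03 for H3K27me3, 8.18 for H2A119Ub), was added before taking log2 ratios, which understates differences of low windows. Windows under a mean of 57.6, 46.3, 12.8 and 41.1 tags were left out, and ratios were centred on the median of the rest. A 2-fold ratio was the limit for a call. Intervals at 95% are exact Poisson for levels and Clopper-Pearson for ratios, without pseudocount. The ratio step was checked on simulated tags.

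Coordinates are those of RefSeq genes (GRCm38.p6), where all 73 symbols were found. Named genes are the highest of each family in H3K27me3 and in H3K4me3, the 2 highest and 2 lowest ratios of each mark, genes with known roles in pancreas, endoderm, tumours or interferon response, and their cluster neighbours. Members, lists and rules were chosen with earlier results of these data known. The alternatives tried were a pseudocount of 1 tag, no centring, quantile normalization, no level filter, a 1.5-fold limit, other level limits and members sharing a window counted once. The values of 1 member are not reported here singly.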

Additional observations from a re-analysis of the deposited data

How the results depend on the processing

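Sets of 3 values are in the order IFN-gamma unselected over untreated, PD-L1 high over IFN-gamma unselected, and PD-L1 high over untreated cells; counts are of members at least 2-fold higher or lower. Without centring the medians were 0.18, 0.070 and 0.25 for H3K4me3, 0.29, 0.34 and 0.63 for H3K27me3 and 0.38, 0.061 and 0.46 for H2A119Ub, and for H3K27Ac -0.032 in the first ratio and -0.043 in the third. For these 2 scalings, brackets give the count over all windows kept (12754 for H3K4me3 and H2A119Ub, 12757 for H3K27Ac and H3K27me3). Without centring 0 members were lower for H3K4me3 (23) and for H3K27Ac (24) in the first ratio. For H3K27me3 0 were higher (63) and 1 lower (2627) in the second. For H2A119Ub 2 were higher (249) and 0 lower (28) in the first, and 0 higher (13) in the second. With quantile normalization the medians for H3K27me3 were -0.047, 0.13 and 0.067. Then 2 genes were higher for H3K27me3 in the second ratio (424) and 2 in the third (366), and 0 lower for H3K4me3 in the first (13). With no level filter the medians for H3K27me3 were 0.19, 0.66 and 0.92; H3K27me3 then had 1, 2 and 2 genes lower (9.87%, 12.8% and 13% of all windows) and 2 and 24 higher in the last ratios (4.88% and 6.7%), H3K4me3 12, 2 and 12 lower (12.7%, 5.7% and 16%) and 2 higher in the second (2.1%), H3K27Ac 9, 6 and 13 lower (4.45%, 1.64% and 5.1%) and 2 higher in the second (2.04%), and H2A119Ub 1 higher in the first (0.906%). A pseudocount of 1 tag gave 1 gene lower in the second ratio for H3K27me3. At 1.5-fold, H3K27me3 had 3, 34 and 46 genes higher (12.8%, 11.8% and 17% of windows kept) and 2 lower in each of the first ratios (14.2% and 25.2%), H2A119Ub 3, 4 and 12 higher (5.61%, 5.3% and 4.19%) with 3 lower in the first and 1 in the third (6.79% and 4.26%), H3K4me3 5 lower in the first and 4 in the third (5.72% and 6.51%), and H3K27Ac 3 and 2 in the same ratios (5.86% and 8.03%). In the highest 20% of windows were 10 members for H3K4me3 and 40 for H2A119Ub, and 4 members were in the highest 25% for both H3K4me3 and H3K27me3. The cause of these differences was not tested, beyond what each setting does by construction: centring shifts all genes of a ratio alike, and dropping the filter admits windows of few tags.

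Of 336 ratios of named members, all kept their direction or moved within their interval with a pseudocount of 1 tag, while 81 moved further without centring and 73 with quantile normalization. Over all windows, the split of 2-fold calls for H3K27me3 in the first ratio was 484 higher and 575 lower, 907 and 286 without centring, and 649 and 527 with quantile normalization; in the third it was 324 and 1133, 127 and 1525, and 366 and 479. No paired analysis was possible because each group has 1 library, and for the same reason no replicate could be left out. Windows of few tags limit what can be read: 47 of the 73 members fell below the filter for H3K4me3 and 55 for H3K27Ac.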

Other observations

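Genes that work with these factors, or belong to their families under other names, also included both genes rich in H3K27me3 and genes with high H3K4me3. The list holds 24 genes: Eya and Dach genes, which act with Six-family factors, Ldb, Lmo, Isl and Lmx1 genes of the LIM group, the Gata cofactors Zfpm1 and Zfpm2 and the repressor Trps1, the T-box genes T, Eomes, Tbr1 and Mga, and Sry. 10 of the 24 lay in the highest 10% of windows for H3K27me3 in untreated cells, and 18 were kept for this mark. Lmx1b, a factor of limb and kidney, had 1295.8, 1578 and 2084 tags of H3K27me3, T, the mesoderm factor Brachyury, had 869, 1172 and 1374, and Isl2, a motor neuron factor, had 692, 1209.7 and 1388. The medians of the 18 genes were 0.17, 0.44 and 0.65 in the 3 ratios. Zfpm1 and Ldb1, the latter a bridging cofactor of LIM proteins, had H3K4me3 of 1205 and 1135 tags in untreated cells. In PD-L1 high over untreated cells the H3K27me3 ratio was below 0 at 3 of the 18 genes, Ldb1 (-0.28), Zfpm2 (-0.27) and Zfpm1 (-0.16). Whether the list differs from the 73 genes was not tested.

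The 8 Polycomb genes measured (Ezh1, Ezh2, Eed, Suz12, Rnf2, Ring1, Kdm6a and Kdm6b, which encode writers of H3K27me3 or H2A ubiquitination and erasers of H3K27me3) had 431 to 1749 tags of H3K4me3 in untreated cells, and none was 2-fold higher or lower in H3K4me3 in any ratio. Ezh2, the main H3K27 methyltransferase of dividing cells, had 646, 948 and 1034 tags of H3K4me3, and Kdm6b, an H3K27 demethylase, had 1749, 2638 and 2389. Kdm6b itself had 50.8, 91.2 and 27.2 tags of H3K27me3. Its ratio was 0.60 (0.11 to 1.15) in IFN-gamma unselected over untreated cells and -1.41 (-2.16 to -0.85) in PD-L1 high over IFN-gamma unselected cells. In the latter ratio 12.6% of all windows kept were at least 2-fold lower. The values of the 8 genes are marks at the genes and not levels of the proteins.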
